A study of Trichoderma reesei with 9 samples.

Results

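Of the 9120 annotated genes in a gene count table of the filamentous fungus Trichoderma reesei, 215 (2.36%) had a count of 0 in each of 9 RNA-seq libraries. These 215 silent genes were chosen by that count alone, with 1228 further gene models that have no annotated identifier left out, so their zeros are the definition of the set and not a result. The remaining 8905 annotated genes had at least 1 count in some library. What follows describes where the silent genes lie, how long they are, what they are annotated as, and how the genes beside them behave.

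The libraries were made from poly-A RNA of mycelia after 96 h in medium with Avicel, a microcrystalline cellulose that induces cellulase genes. The 3 strains, with 3 libraries each, were Rut-C30 (labelled as wild type and called the parent below) and its derivatives Δvps13 and Δvps21, each with 1 gene of vacuolar protein sorting deleted. From work in yeast, Vps13 is known to move lipids between membranes, and Vps21, a small GTPase related to Rab5, acts on endosomes. All 3 strains carry the Rut-C30 background, so the deletion strains and their controls share whatever that background lacks. The labels do not say how the deletions were made or whether a strain is 1 clone.

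Rut-C30 is a cellulase hyperproducer obtained by rounds of mutagenesis from the natural isolate QM6a, the strain whose genome serves as the species reference. It is known to lack some stretches of DNA that QM6a has, among them a long one near the end of a scaffold (a contiguous assembled piece of the genome). A gene annotated on the reference can therefore be without reads because the strain does not carry it, because it is not transcribed in this medium, because its gene model does not match a transcript, or because its reads match several places and were not counted. A count of 0 cannot tell these apart. Of the 215 silent genes, 215 were found by identifier in a RefSeq gene table (QM6a v2.0), and 212 had the same start and end there. Scaffold positions below are those of the deposited table, whose build is not stated in the sources used here.

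The library totals ran from 12127372 to 13493219 counts and summed to 115432080. At this depth, 3 counts correspond to 0.19 to 0.354 CPM (counts scaled to a common, TMM-adjusted library size) in a single library and to 0.0256 CPM over all 9, which is the upper limit that a count of 0 allows for counting error only. The other annotated genes had a median of 2186 counts summed over the libraries, their 5th percentile was 18 counts, and 8037 of them were detected in every library. Of the 3 strains, Δvps13 had the largest spread between libraries, with a chi-square per degree of freedom of 147 to 334 between pairs, against 13.1 to 32.3 in the parent and 28.6 to 56.2 in Δvps21. Neither vps13 nor vps21 appears as the name or in the description of an annotated gene. Of 2 genes described as rab5-like GTPases, TRIREDRAFT_123015 had 1607, 1365 and 1529 counts in the parent against 2, 2 and 2 in the Δvps21 libraries, and the loss of a vps13 transcript could not be checked.

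The silent genes were scattered over 51 of the 64 scaffolds that hold annotated genes. In order along the scaffolds they formed 125 runs of 1 gene, 18 pairs, 2 runs of 3, 2 runs of 4 and single runs of 5, 6 and 29. The 3 runs of 5 or more held 40 of the 215. On 8 scaffolds every annotated gene was silent, which accounts for 17 genes, including the run of 5, 1 run of 4 and 1 run of 3. The rest were the run of 29, the run of 6, 7 genes in the other runs of 3 and 4, 36 genes in pairs and 120 single genes with detected neighbours or a scaffold end on each side.

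The run of 29 was the only long run at the end of a scaffold that also holds detected genes. It took in the first 29 of 222 annotated genes on scaffold NW_006711162.1, from position 247 to 85537, a stretch of 85.3 kb. Its genes were about as dense as elsewhere. There was 1 gene per 2941 bases, the median gap to the next gene was 905 bases against 1037 for the other annotated genes, and the summed gene lengths (43.1 kb) covered 50.6% of the stretch. None of these unannotated models lies inside it. The run had the same 29 genes in each of the 9 libraries read alone, and it stayed 29 genes long when genes with up to 9 counts in sum were also admitted as silent. The other 193 genes of the scaffold included 7 further silent genes, none of them next to the run.

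The genes of the run of 29 were better annotated than the remaining silent genes. A protein domain was given for 16 of the 29 (55.2%), against 34.4% of the other annotated genes. The share was 26.0% in the 169 silent genes outside this run and the 8 silent scaffolds. Within those, the genes in runs of 3 and 4 had a domain in 6 of 7 (85.7%), but 0 of them had a description. In the run of 29, 8 genes had a description beyond predicted or hypothetical protein, and 10 had neither. Their median length was 1377 bases, close to the 1317 bases of the other annotated genes. These are facts of the annotation and carry no test, because the counts picked the genes.

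The run held 4 genes of enzymes that act on carbohydrates. TRIREDRAFT_64906 (32246 to 33596) is a glycoside hydrolase of family 5, a family that includes endo-acting enzymes on cellulose and mannan. Its description does not name a substrate. The 8 other genes with the same description had summed counts, not corrected for length, from 5 to 553259, the highest being the endoglucanase gene cel5a. TRIREDRAFT_122780 (45898 to 47405) is of family 28, whose members cleave pectin, and the 3 other genes with that description had 15 to 5074 counts. TRIREDRAFT_25224 (71889 to 74905) is of family 65, which includes trehalases and phosphorylases. The other gene with that description, TRIREDRAFT_123456, had 16192 counts. TRIREDRAFT_65215 (21775 to 22841) belongs to carbohydrate esterase family 4, a family of deacetylases, and the 2 other genes with that description had 694 and 922 counts. Each of these descriptions thus had at least 1 detected gene elsewhere in the genome.

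Genes of uptake followed. TRIREDRAFT_65191 carries a sugar transporter domain (Sugar_tr), TRIREDRAFT_109211 a major facilitator domain (MFS_1), and TRIREDRAFT_64971 is described as an amino acid transporter. The 16 other genes described as amino acid transporters had from 4 to 8822 counts. The domain Sugar_tr is carried by 64 annotated genes, of which TRIREDRAFT_65191 was the only silent one.

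Redox enzymes formed a larger group. The gene gld1 (18217 to 19356) encodes a glycerol dehydrogenase of the aldo-keto reductase type, which interconverts glyceraldehyde and glycerol, and no other gene in the table has that description. With TRIREDRAFT_65067 and TRIREDRAFT_64956 it made up 3 of the 4 silent genes among the 28 that carry the aldo-keto reductase domain, 18 of which passed the filter on low counts. TRIREDRAFT_65142 carries an aldehyde dehydrogenase domain, TRIREDRAFT_65097 the N-terminal domain of alcohol dehydrogenases and TRIREDRAFT_109201 a FAD-binding domain. TRIREDRAFT_4726 and TRIREDRAFT_65036 are cytochrome P450 genes, from a domain class of 71 annotated genes with 5 silent ones. TRIREDRAFT_109199, the first gene of the scaffold (247 to 3990), carries a rhodanese domain and has a length of 584 bases.

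The run also held regulators and a gene of secondary metabolism. TRIREDRAFT_71823 (52993 to 55245) is described as a fungal transcription factor domain protein, and the 10 other genes with that description had 66 to 5033 counts. TRIREDRAFT_79725 carries a zinc cluster domain, the DNA-binding domain typical of fungal regulators. TRIREDRAFT_65172 (76106 to 84410) is a polyketide synthase, an enzyme that assembles polyketides from acyl units. At 7797 bases it was the longest of the 215 silent genes, and the 9 other genes with that description had 6 to 3837 counts. The last gene of the run was TRIREDRAFT_79726 (84689 to 85537). The remaining members were TRIREDRAFT_43418, TRIREDRAFT_64959, TRIREDRAFT_71817, TRIREDRAFT_109206, TRIREDRAFT_49946, TRIREDRAFT_65117, TRIREDRAFT_65041, TRIREDRAFT_109219 and TRIREDRAFT_109221, for which no role is given here.

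Reads began within 2 kb of the end of the run. The next gene, TRIREDRAFT_64996, a carbon-nitrogen hydrolase gene that starts 1919 bases past it, had 2, 1 and 5 counts in the parent, 1, 3 and 5 in Δvps13 and 6, 1 and 3 in Δvps21. It was thus near the floor in every library, yet at 0 in none. The gene after it, TRIREDRAFT_122783, a zinc cluster gene at 88689 to 90473, had 52.3, 49.3 and 42.9 CPM in the parent, 59.3, 33.6 and 26.9 in Δvps13 and 31.9, 26.9 and 31.7 in Δvps21. It lies 3151 bases past the last silent gene. Among the 19 annotated genes and 3 unannotated models in the 60 kb past the run, 0 had a summed count of 0, 2 annotated genes had fewer than 10 counts, and the median summed count was 862.

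**Figure D1:**
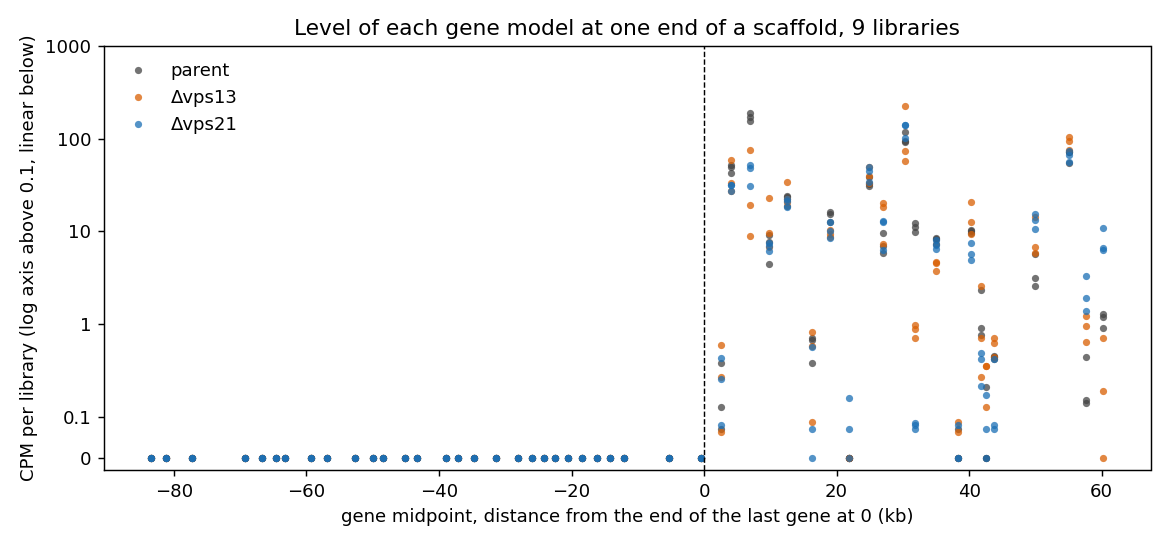
Level of each gene model at 1 end of scaffold NW_006711162.1 (CPM, log axis above 0.1 and linear below) against its distance from the end of the run of 29, in kb. Each point is a gene in a library, coloured by strain. All 29 genes of the run sit at 0 in all 9 libraries, and each gene past it has counts in at least 1 library, TRIREDRAFT_122783 at 26.9 to 59.3 CPM.

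The 8 scaffolds on which every gene was silent looked different. They hold 17 genes in all and none of the unannotated models. NW_006711194.1 has 5 annotated genes (1167 to 41882), NW_006711202.1 has 4 (6316 to 30820), NW_006711205.1 has 3 (5234 to 18658), and NW_006711199.1, NW_006711208.1, NW_006711211.1, NW_006711212.1 and NW_006711215.1 have 1 each. Their gene models are sparse. On the 3 larger scaffolds the summed gene lengths covered 6.12%, 4.25% and 5.21% of the stretch, against 50.6% in the run of 29. The median length of the 17 genes was 273 bases. All 17 are described as predicted protein. The 1 with a domain was TRIREDRAFT_71173, which carries a phosphotransferase domain (APH) and has a length of 894 bases, 90.8% of its span from start to end. In the other 16, the gene length was under 50% of the span.

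Silent genes were frequent on small scaffolds, mostly through these 8. The 13 scaffolds with 5 or fewer annotated genes held 28 genes, of which 21 were silent, while the larger scaffolds had 194 silent genes of 9092 (2.13%). Of those 21, 17 lie on the 8 scaffolds singled out above because every gene on them was silent. Of all silent genes, 59 (27.4%) were among the first or last 5 genes of their scaffold, against 479 (5.38%) of the other annotated genes. The share stayed above that of the other genes for the single silent genes alone, at 22.5%. Annotated genes that were just detected, with a summed count of 1 to 9, had a share of 10.1%.

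The run of 6 lay inside a scaffold and was sparse too. TRIREDRAFT_42043, TRIREDRAFT_53452, TRIREDRAFT_103043, TRIREDRAFT_103044, TRIREDRAFT_103045 and TRIREDRAFT_2033 span positions 2449695 to 2489015 of NW_006711148.1. In these 39.3 kb there was 1 annotated gene per 6554 bases, and the gene lengths covered 9.23% of the stretch. None of the 6 has a description or a domain. An unannotated model lies inside the run at 2486091 to 2486536 on the minus strand, with 11, 2 and 5 counts in the parent, 1, 0 and 2 in Δvps13 and 1, 2 and 0 in Δvps21. It was the only such model in the run and lies between TRIREDRAFT_103045 and TRIREDRAFT_2033. Its counts in both deletion strains were near the floor. They come from this model alone and do not describe the rest of the stretch, whose annotated genes had no reads. On its right, 235 bases away, lies TRIREDRAFT_74223, a gene of glycoside hydrolase family 11, the family of xylanases.

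Both short runs outside the silent scaffolds held enzyme domains that also occur in clusters of secondary metabolism, in which neighbouring genes encode the steps of 1 pathway. The run of 4 (NW_006711148.1, 2708793 to 2714631) consists of TRIREDRAFT_103113 (short-chain dehydrogenase domain), TRIREDRAFT_103114, TRIREDRAFT_54160 (aminotransferase domain) and TRIREDRAFT_53168 (cytochrome P450). The gene next to it is the non-ribosomal peptide synthetase TRIREDRAFT_24586, which makes peptides without the ribosome. It had 1 count in all, from parent replicate 1, over a length of 6570 bases. The 3 genes after it, TRIREDRAFT_54784, TRIREDRAFT_103119 and TRIREDRAFT_32402, had summed counts of 1, 23 and 2. The low stretch on this side of the run was thus longer than its silent members.

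The run of 3 (NW_006711162.1, 583198 to 589642) consists of TRIREDRAFT_109349 (short-chain dehydrogenase domain), TRIREDRAFT_65040 (cytochrome P450) and TRIREDRAFT_109351 (FAD-binding domain). It lies between the polyketide synthase TRIREDRAFT_65116, 4267 bases to the left with 122 counts in sum, and the short-chain dehydrogenase gene TRIREDRAFT_40808, 1447 bases to the right. Between it and these genes, or just past them, TRIREDRAFT_65095 had 8 counts and TRIREDRAFT_109353 had 2.

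The 18 pairs held 12 genes with a domain among 36, and the described ones were of mixed function. TRIREDRAFT_73016 is an aryl-alcohol oxidase, a family that yields hydrogen peroxide, and the 1 other gene so described had 436 counts. TRIREDRAFT_67678 is described as glycoside hydrolase family 18, the chitinase family, while its domain is that of polysaccharide deacetylases. The 6 other family 18 genes with the same wording had 91 to 5234 counts. TRIREDRAFT_123639 is of family 64 (beta-1,3-glucanases), TRIREDRAFT_71078 is a calcium/calmodulin dependent protein kinase, and TRIREDRAFT_41260 is a receptor of the PTH11 type, named after a receptor of the rice blast fungus. The other genes of these 3 descriptions had 25 and 4756 counts, 9902 counts, and 3 to 21970 counts. In the pair TRIREDRAFT_37316 and TRIREDRAFT_58848 an unannotated model (NW_006711152.1, 501916 to 502480) lies between the silent genes. It had 6, 4 and 3 counts in the parent, 4, 1 and 12 in Δvps13 and 5, 15 and 10 in Δvps21.

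As a set, the silent genes were short. Their median length was 816 bases (quartiles 414.5 and 1290) against 1317 (854 and 1920) for the other annotated genes. A length under 300 bases was given for 37 of the 215 (17.2%) and for 208 of the others (2.34%). Lengths that are a multiple of 3, as in gene models without untranslated ends, made up 93.5% of the silent genes and 78.7% of the others. Within the multiples of 3 the medians were 828 and 1254 bases, so the silent genes were shorter among such lengths as well. Models with untranslated ends can have such a length too, so these medians do not compare models of 1 kind. The genes just outside the threshold, with a summed count of 1 to 9, had a median of 957 bases. A short gene collects fewer reads at the same level of RNA, so length and silence are not independent measures, and no test was made.

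A group of narrow gene models stood out within them. In these, the summed exons cover under 25% of the distance from start to end. Of 60 such models among all annotated genes, 37 (61.7%) were silent, 6 had 1 to 9 counts and 17 had 10 or more. The silent ones comprised 16 on the 8 silent scaffolds, 16 single genes, 3 genes of the run of 6, 1 in a pair and 1 in the run of 29. Their median length was 222 bases over a median span of 1854 bases, 27 of the 37 were among the first or last 5 genes of a scaffold, and 1 had a domain. In the run of 29, by contrast, the median gene covered 90.5% of its span, near the 90.2% of the other annotated genes.

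**Figure D2:**
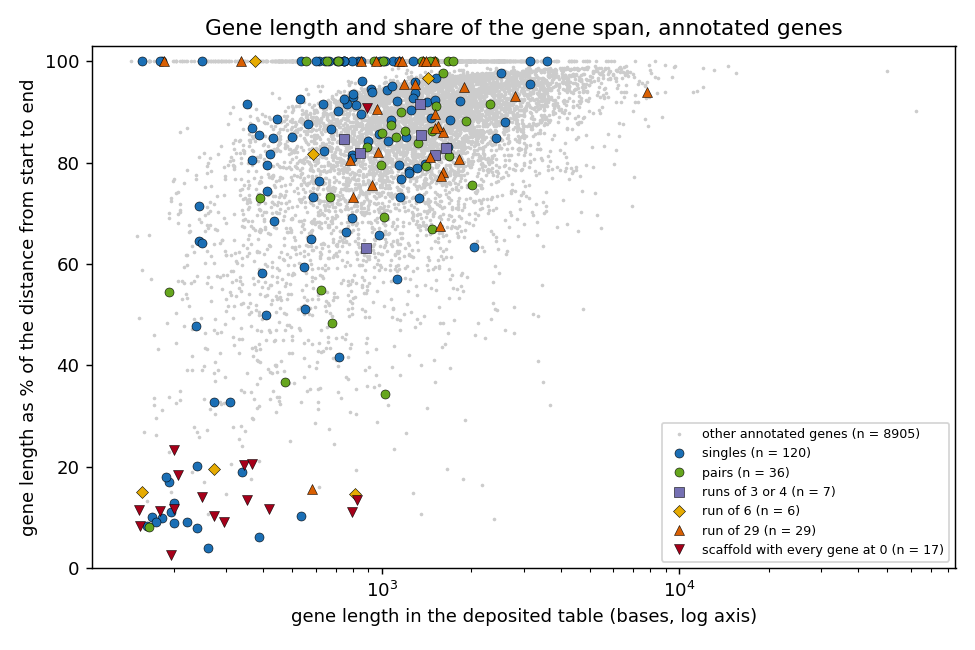
Gene length in bases (log axis) against gene length as a percentage of the distance from start to end, for each annotated gene. Grey points are the 8905 other annotated genes and coloured points are the 215 silent genes by class. The genes of the 8 silent scaffolds gather at the lower left, with a median of 11.7% of the span, while those of the run of 29 lie within the grey cloud at a median of 90.5%.

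The 120 single silent genes had a median length of 747 bases, and 8 of them had a description. TRIREDRAFT_106486 is the only gene described as trichodiene synthase, the enzyme of the first step of trichothecene toxin synthesis. TRIREDRAFT_103033 is of polysaccharide lyase family 7, which cleaves alginate-type polymers, and the other gene with that description, TRIREDRAFT_110259, had 1 count in sum. TRIREDRAFT_72071 carries a carbohydrate-binding module of family 13, and the 2 other genes so described had 1 and 49 counts. The detected genes with these descriptions thus had at most 49 counts over all 9 libraries.

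Other single silent genes shared their description with genes of higher counts. TRIREDRAFT_66183 is a serine carboxypeptidase, and the 3 other genes with that description had 3731 to 64764 counts. TRIREDRAFT_111733 is of glycoside hydrolase family 92 (alpha-mannosidases), and the 5 other genes with that description had 20 to 14443 counts. TRIREDRAFT_3262 is a succinate semialdehyde dehydrogenase, an enzyme of the breakdown of gamma-aminobutyrate, and the other gene with that description had 461 counts. TRIREDRAFT_111861 is the other silent PTH11-type receptor gene, so that 2 of the 12 genes with this description were silent.

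Beside the polyketide synthase, the longest silent genes were TRIREDRAFT_56278 (3582 bases), TRIREDRAFT_59690 (3159 bases), TRIREDRAFT_106928 (3150 bases) and TRIREDRAFT_25224 (2811 bases). TRIREDRAFT_59690 carries an AMP-binding domain and lies next to the polyketide synthase TRIREDRAFT_105804, which had 6 counts in sum. TRIREDRAFT_106928 carries the C-terminal domain of cation-pumping ATPases. A length of this size is above the median of the detected genes, so shortness does not describe these members.

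The remaining described single gene was hap5, described as a CCAAT-binding factor. In fungi, Hap2, Hap3 and Hap5 are the subunits of the complex that binds CCAAT boxes in promoters, and the binding needs all of them. The gene hap5 (NW_006711186.1, 14884 to 16035, minus strand, length 795 bases) had 0 counts in all 9 libraries. The gene hap2 had 357, 306 and 326 counts in the parent, 362, 351 and 184 in Δvps13 and 399, 294 and 408 in Δvps21, which is 22.8 ± 1.61, 25.2 ± 4.99 and 28.9 ± 5.44 CPM (SD, n = 3). The gene hap3 had 37.4 ± 3.11, 34.0 ± 4.43 and 39.0 ± 1.44 CPM (SD, n = 3). Neither differed from the parent past the threshold in edgeR's quasi-likelihood test (Benjamini-Hochberg adjusted p = 0.689 and 0.253 for hap2, 0.632 and 0.824 for hap3, in Δvps13 and Δvps21).

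The annotation places hap5 inside another gene. It lies wholly within TRIREDRAFT_82476 (11635 to 16035, plus strand), which is described as the sec15 subunit of the exocyst, the complex that tethers secretory vesicles at the plasma membrane. This gene had 750, 898 and 733 counts in the parent, 754, 411 and 253 in Δvps13 and 550, 569 and 499 in Δvps21. Of all annotated genes, hap5 was the only one lying wholly inside another. It was also the only silent gene that touched another gene model, annotated or not, out of 36 annotated genes that do. The labels name no step that marks the strand of a transcript, so reads of hap5 and of the gene around it cannot be told apart, and how reads that fall on both were counted is not given in the sources used here. The zero of hap5 is therefore uncertain.

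Counted by description, the lists held few silent genes each. Glycoside hydrolases had 6 silent genes of 177 (3.39%), 3 of them in the run of 29, against 2.36% of all annotated genes. Transporters had 1 of 82 (1.22%), transcription factors 1 of 54 (1.85%), proteases 1 of 40 (2.5%), and dehydrogenases, reductases and oxidases 3 of 120 (2.5%). The polyketide synthase TRIREDRAFT_65172 was the 1 silent gene among 25 whose descriptions hold words for polyketide or non-ribosomal synthases, P450s or terpenes. That list misses the silent trichodiene synthase TRIREDRAFT_106486, whose description lacks these words. It also misses the silent genes with a p450 domain, which are described as predicted protein. No silent gene was found among 79 glycosyltransferases, 48 ribosomal proteins and 28 genes of histones, helicases and polymerases. The list of kinases, phosphatases, GTPases and receptors had 4 of 324, 1 of them TRIREDRAFT_71823, which the word pattern caught only through the letters of its description. The same letters catch any description with wording such as domain-containing protein. The 10 other genes of the description of TRIREDRAFT_71823 are among these, and TRIREDRAFT_122783 is another. The 324 therefore also counts genes outside these classes, in a number that was not determined. Most silent genes, 194 of 215 (90.2%), had no informative description, against 82.1% of the others. By domain, which more genes have than a description, the counts were 6 of 162 for MFS_1, 5 of 71 for p450, 4 of 28 for Aldo_ket_red, 4 of 88 for adh_short, 3 of 25 for FAD_binding_4 and 3 of 21 for the subtilisin-type protease domain Peptidase_S8. These counts are small, and no list is called particular from them.

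The genes next to the single silent genes were themselves low. For the 218 nearest detected neighbours, the median level was 1.58 CPM per kb of gene length, against 13.3 over all other annotated genes. A summed count under 10 was found for 37 of them (17.0%), against 3.45% of the other annotated genes, and 62.4% of them had enough counts to be tested, against 89.9%. Of the 104 single silent genes with a detected gene on both sides, 10 had 10 CPM or more in both. The share of other annotated genes with such neighbours was not computed, so this count has no background to be read against.

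A few silent genes lay between well-expressed neighbours. TRIREDRAFT_107285 (length 222 bases) lies between TRIREDRAFT_22283 at 158 CPM and the leucine zipper transcription factor gene TRIREDRAFT_73417 at 680 CPM, both means over the 9 libraries. TRIREDRAFT_104343 (261 bases) has neighbours at 56.3 and 52.1 CPM, TRIREDRAFT_108832 (762 bases) at 50.7 and 44.1 CPM, and TRIREDRAFT_112338 (552 bases) at 24.4 and 40.1 CPM, with hap5 described above. TRIREDRAFT_107285 and TRIREDRAFT_104343 are narrow models, with exons of under 25% of their spans of 2443 and 6382 bases.

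The number of silent genes depends on where the line is drawn. Beyond the 215 annotated genes at 0 there were 67 with a single count in all 9 libraries, 48 with 2 and 35 with 3. The single counts were spread over the libraries, with 10, 8 and 11 in the parent, 5, 2 and 9 in Δvps13 and 6, 10 and 6 in Δvps21. Genes with 1 to 9 counts numbered 307 and are part of the other annotated genes. In some measures they lay between the silent genes and all other annotated genes. Of them, 10.1% were among the first or last 5 of a scaffold, against 27.4% and 5.38%. A length under 50% of the span was given for 7.82%, against 20.5% and 2.72%. In other measures they did not lie between. A domain was given for 24.1%, against 28.4% and 34.4%. Lengths that are a multiple of 3 made up 96.1%, against 93.5% and 78.7%.

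Since the 215 genes are at 0 everywhere, the strains can differ only in the other genes. Without the silent set, the number of annotated genes at 0 in a library was 275, 298 and 339 in the parent, 374, 448 and 479 in Δvps13 and 381, 369 and 396 in Δvps21. Strain means were 304 ± 32.4, 434 ± 53.9 and 382 ± 13.5 (SD, n = 3). Every library of either deletion strain was above every parent library. The differences of 130 genes in Δvps13 and 78.0 in Δvps21 each gave p = 0.1 in a two-sided exact permutation test, which is the smallest value that 3 libraries against 3 can give, so the design cannot reach 0.05. The totals overlapped between the strains, and with every library thinned to the smallest total the differences were 132 and 80.3. The TMM library sizes, which allow for a few genes taking many of the counts, ran from 13281463 to 15826159 in the parent, from 8472321 to 15688454 in Δvps13 and from 11796483 to 14065546 in Δvps21. The smallest was that of Δvps13 replicate 3, which also had the most genes at 0. With every library thinned to that size (chosen after seeing the data), the numbers at 0 were 369 to 403 in the parent, 479 to 500 in Δvps13 and 437 to 479 in Δvps21, and the differences were 107 and 75.1, again with p = 0.1 in the exact permutation test. The labels do not say whether libraries came from separate cultures, so these p-values and those below measure only the spread between libraries.

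**Figure D3:**
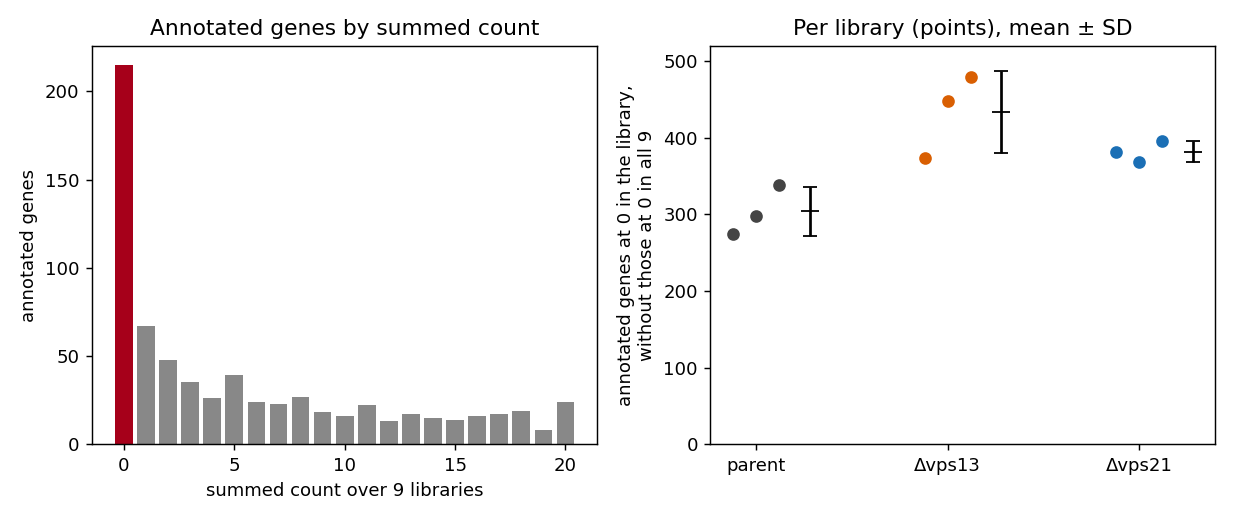
Left, number of annotated genes at each summed count from 0 to 20 over the 9 libraries, with the 215 at 0 in red. Right, number of annotated genes at 0 in a single library without those 215, per library (points) with the mean ± SD of each strain. The parent libraries lie at 275 to 339, below all libraries of Δvps13 (374 to 479) and Δvps21 (369 to 396).

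Genes silent in 1 strain alone were rare and low. At 0 in all 3 libraries of the strain were 120 genes beyond the silent set in the parent, 202 in Δvps13 and 167 in Δvps21. Of these, only 1, 5 and 10 had a count in each of the other 6 libraries. In the parent it was TRIREDRAFT_122975, with 10, 4 and 1 counts in Δvps13 and 18, 31 and 18 in Δvps21. Among those of Δvps13 was the chitinase gene chi18-17, with 4, 5 and 3 counts in the parent and 11, 8 and 13 in Δvps21. Among those of Δvps21 was TRIREDRAFT_105156, with 92, 115 and 77 counts in the parent and 3, 7 and 9 in Δvps13. These genes were chosen for their zeros and after their values were seen, and none of them belongs to the 215.

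Whether the genes at the borders of the silent runs differ between the strains is a question that the choice of the silent genes did not use. For each run of 3 or more on a scaffold with detected genes, the nearest gene on each side with enough counts was taken, which gives 7 genes. In Δvps13, 0 of the 7 differed from the parent at an adjusted p under 0.05 (edgeR quasi-likelihood test, Benjamini-Hochberg over 8906 genes), where 10.4% of all tested genes did, 5.65% higher and 4.75% lower. At an unadjusted p under 0.05 there were also 0, the smallest being 0.118, and DESeq2 called 0. In Δvps21, 3 of the 7 differed, all lower, where 32.5% of all tested genes did, 16.7% higher and 15.8% lower.

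The run of 29 has 1 border gene, TRIREDRAFT_122783, at 48.2 ± 4.8 CPM in the parent, 39.9 ± 17.1 in Δvps13 and 30.2 ± 2.85 in Δvps21 (SD, n = 3). The Δvps21 libraries all lay below the parent ones, and the Δvps13 libraries lay on both sides of them. Neither difference passed the threshold (log2 -0.27, SE 0.27, adjusted p = 0.539 in Δvps13 and log2 -0.67, SE 0.27, adjusted p = 0.0755 in Δvps21, edgeR). The Δvps21 difference was called when Δvps13 replicate 1 or 3 was left out of the shared fit (adjusted p = 0.0121 and 0.0185) and when the 2 strains were fitted alone (0.00174).

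All 3 called genes border the runs of 4 and 3. TRIREDRAFT_74278, a gene with a pyridine nucleotide oxidoreductase domain that lies 28537 bases right of the run of 4 with 9 genes between, had 16.4, 19.3 and 15.2 CPM in the parent, 16.3, 14.2 and 20.3 in Δvps13 and 5.47, 9.12 and 5.34 in Δvps21. It was 2.55-fold lower in Δvps21 (log2 -1.35, SE 0.27, edgeR adjusted p = 0.00391), with no overlap between Δvps21 and the parent. TRIREDRAFT_44362, 3652 bases left of the same run, had 37.7, 28.5 and 28.7 CPM in the parent, 10.3, 34.5 and 5.31 in Δvps13 and 5.19, 11.7 and 10.2 in Δvps21. It was 3.51-fold lower in Δvps21 (log2 -1.81, SE 0.56, edgeR adjusted p = 0.029). That call was lost without any 1 of the parent replicates 1, 2 and 3 (0.0923, 0.0632 and 0.0634) or the Δvps21 replicates 1, 2 and 3 (0.115, 0.0529 and 0.081). In Δvps13 its difference was not called (log2 -0.92, adjusted p = 0.285) but was without Δvps13 replicate 2 (adjusted p = 0.0271).

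TRIREDRAFT_40808, the short-chain dehydrogenase gene right of the run of 3, had 1.33, 2.3 and 1.73 CPM in the parent, 0.701, 0.705 and 2.71 in Δvps13 and 0.213, 0.161 and 0.339 in Δvps21. It was 7.3-fold lower in Δvps21 (log2 -2.87, SE 0.67, edgeR adjusted p = 0.00802), and its Δvps21 libraries were all below all others. The Δvps21 libraries had only 3, 2 and 4 counts of it, near the floor of 3, against 21, 33 and 23 in the parent. The size of the fold is therefore uncertain. The polyketide synthase TRIREDRAFT_65116 on the other side of that run had 1.33, 0.768 and 1.13 CPM in the parent and 1.14, 0.565 and 1.02 in Δvps21, overlapping ranges with an adjusted p of 0.735.

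Beside the run of 6, TRIREDRAFT_103041, a gene with a formamidase-type domain 2568 bases to the left, had 4.55, 3.63 and 3.69 CPM in the parent, 2.29, 1.32 and 6.61 in Δvps13 and 3.06, 4.44 and 2.37 in Δvps21. It was called in neither comparison (edgeR adjusted p = 0.777 and 0.72), but in Δvps13 without replicate 3 (log2 -1.09, 0.0443). TRIREDRAFT_74223, the family 11 glycoside hydrolase gene to the right, had 2.27, 0.977 and 2.41 CPM in the parent, 1.15, 0.882 and 6.14 in Δvps13 and 4.83, 3.71 and 3.73 in Δvps21. Its Δvps21 libraries were all above the parent ones, with log2 1.11, SE 0.64 and an adjusted p of 0.206. That difference was called in a fit of the 2 strains alone (0.0102) and without Δvps13 replicate 3 (0.0208). The silent genes between these borders have no count in any strain by the rule that chose them, so they carry no comparison of strains.

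**Figure D4:**
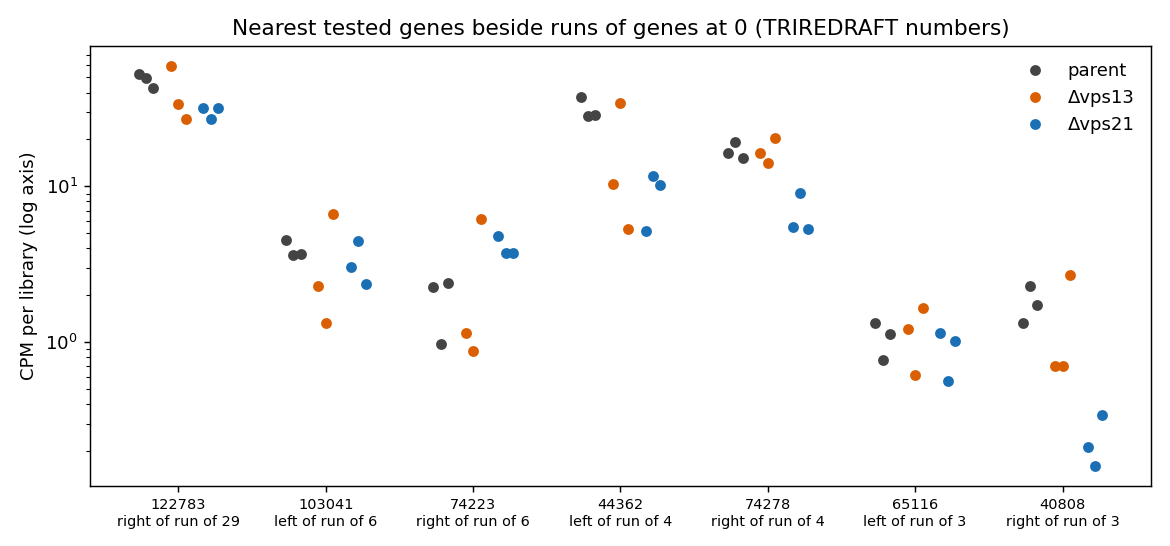
CPM per library (log axis) of the 7 nearest tested genes beside the runs of 29, 6, 4 and 3, by strain. TRIREDRAFT_74278, TRIREDRAFT_44362 and TRIREDRAFT_40808 are lower in all Δvps21 libraries than in all parent libraries and were called, and TRIREDRAFT_122783 was not (adjusted p = 0.0755).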

How the data were processed

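The authors deposited a table of whole-number read counts per gene for 9 libraries and a table of FPKM values, with gene length in bases, coordinates, descriptions and domain names. HISAT2 2.0.5 and featureCounts 1.5.0-p3 are the tools named for alignment and counting per the submitters' processing notes. The deposited gene length was used for lengths, and the deposited FPKM table only to see that the same 215 genes are at 0. The handling of reads that match several places is not given in the sources used here. If such reads were left out, a repeated gene would have a count of 0, which was not tested.

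Silent genes are annotated genes with 0 counts in all libraries, and a run is a stretch of such genes adjacent in the table's scaffold order. They and the lists were chosen with earlier results of these data known. Named are genes of runs of 5 or more, described members, the 5 longest, border genes and the 5 single genes with the highest neighbours. Other genes were picked after their values were seen.

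Border genes were tested with edgeR 4.0.16 in R 4.3.3 (filterByExpr minimum count 10, TMM, 1 mean per strain over 9 libraries, 8906 genes, Benjamini-Hochberg, threshold 0.05). None of the silent genes passed that filter. Alternatives were DESeq2 1.42.0, median-ratio factors, no filter, 2 strains alone, a replicate block, other limits for silence and for runs, and leaving out each library. CPM values use TMM library sizes.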

Additional observations from a re-analysis of the deposited data

Results flagged for a closer look

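Reads on gene models without an annotated identifier inside stretches of silent annotated genes lie outside the measurement that defined the silent set, and there were 2 such models. The model inside the run of 6 had 24 counts over the 9 libraries. The model between the silent genes TRIREDRAFT_37316 and TRIREDRAFT_58848 had 60 counts. Both sums are above the floor of 3 counts. The run of 29 and the 8 silent scaffolds hold no such model.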

How the results depend on the processing

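The run of 29 did not become longer under any limit for silence or in any library. By the rule that chose its genes it could not become shorter. The silent set grew from 215 to 365 genes when sums of 3 or fewer were admitted and to 522 with 9 or fewer, and leaving out 1 library gave 218 to 233. Silent genes in long runs numbered 40, and 40 to 45 with a library left out. Border genes called in Δvps13 numbered 0, and 0 to 1 with a library left out (1 without Δvps13 replicate 2, TRIREDRAFT_44362, and 1 without replicate 3, TRIREDRAFT_103041). In Δvps21 they numbered 3, 5 in the 2 strains alone, and 2 to 5 with a library left out (5 without Δvps13 replicate 3).

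Differences in genes at 0 per library were 107 to 160 (Δvps13) and 63.5 to 95.5 (Δvps21) with a library left out, and 197 and 147 when 2 counts or fewer counted as silent. Among border genes that were not called, the sign turned in Δvps13 for TRIREDRAFT_74278 (log2 0.01 with DESeq2, median-ratio factors and the replicate block, -0.14 to 0.11 with a library left out), and, with a library left out, for TRIREDRAFT_65116 (-0.18 to 0.39), TRIREDRAFT_103041 (-1.09 to 0.14) and TRIREDRAFT_74223 (-0.86 to 0.89), and in Δvps21 for TRIREDRAFT_65116 (-0.43 to 0.01). The cause was not tested.

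Over all genes, calls in Δvps13 numbered 926, 1620 with DESeq2, 298 in the 2 strains alone and 165 to 3233 with a library left out; in Δvps21 2897, 4889 in the 2 strains alone and 1705 to 4236. Same-numbered libraries correlated at 0.082 to 0.142 (parent with Δvps13), -0.042 to 0.096 (parent with Δvps21) and 0.47, -0.098 and -0.078 (Δvps13 with Δvps21, numbers 1, 2 and 3), not over 0.1 in every pair, so the numbers were not taken as pairs; a replicate block gave 0 and 3 border genes and 807 and 2879 calls. Depth limits silence to the floor of 3 counts.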
